A study of Mus musculus with 12 samples.

Results

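Immediate early genes are the first genes a neuron transcribes after strong synaptic input. They were taken here as the 10 genes Fos, Fosb, Junb, Egr1, Egr2, Npas4, Nr4a1, Arc, Dusp1 and Ier2, picked by symbol from the 54532 genes of the count table and followed in all 12 libraries. All 10 had enough counts to be tested, among 16915 genes tested in all. The tissue was the ventral hippocampus of mice whose genotype the labels give as WT, with 3 libraries in each of 4 groups. Control mice had the treatment none. CSDS mice were exposed to CSDS with no virus named. SSDS-GFP mice received AAV8-eGFP and were exposed to SSDS, and SSDS-shACOT12 mice had ACOT12, an acetyl-CoA thioesterase, knocked down in the liver and were exposed to SSDS. The labels give only these abbreviations, which in this field usually mean chronic and subthreshold social defeat stress. The column names of both virus groups carry TBG, a name used for a hepatocyte promoter. The control group had neither virus nor SSDS, so the effects of the virus and of SSDS cannot be told apart in any contrast with it. Age, sex and the time from the last defeat to dissection are not given in the sources used here. The labels do not tie replicates to separate animals, and the p-values cover only the spread between these libraries, which may be technical.

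Calcium entering through synaptic receptors and voltage-gated channels activates kinases that act on transcription factors already present in the neuron, among them CREB and SRF. Immediate early genes are switched on through these factors without new protein synthesis. Some of the products are transcription factors themselves, which drive a later wave of genes, and others act at the synapse or shut the signal off. In the hippocampus these transcripts rise within minutes of experience and fall again soon after, and they are widely used to mark recently active cells. In tissue RNA, more transcript per active cell and more active cells cannot be told apart.

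The genes are short. Their genomic span had a median of 4698 bases, from 1522 in Ier2 to 20527 in Nr4a1, against 20931 over all genes tested. The coordinates of 8 of the 10 were the same in GENCODE M21, and those of Npas4 and Dusp1 were not. Start sites from RefSeq (GRCm38.p6, the mm10 build) were used for 7 of the 10, and those of Arc, Ier2 and Egr1 were not analysed here. The 250 bases before each of these starts were searched on both strands for TGACG, the half-element bound by CREB, for its full palindrome TGACGTCA, which contains the half-element, for the CArG box bound by SRF and for TGANTCA, bound by AP-1. TATAAA was searched on the strand of the gene. The half-element was found before all 7 genes, in 9 of their 11 windows, and in 17.8% of the 32851 windows of the whole table. The windows are not independent. Those before the Egr2 starts at 67537869, 67537870 and 67537930 overlap, so the same Egr2 sites are counted more than once. The full palindrome was found only for Dusp1 among the 7 (1.55% of all windows), the CArG box only for Egr2, in 4 of its windows (1.47%), and TATAAA only for Fos (7.59%). The overlapping Egr2 windows hold the same CArG box, CCATATATGG, and the window before 67537566 holds another, CCTTTTTTGG. TGANTCA was in none of the 11 windows (6.75% of all). A match describes these letters and shows no binding. Sites farther than 250 bases before a start were not searched, so a gene without a match here may still have the site. The stretches printed are those before the starts of the 4 genes that passed a test in one of the contrasts reported here, and the pair of half-elements of Npas4, which passed none. Bases inside an exon of GENCODE M21 are left out for Fos, Egr2, Junb and Dusp1, while the short Npas4 stretch lies inside one, and the capitals mark the half-element, the palindrome, the CArG box and TATAAA. They are Fos, chr12:85473640-85473889 on the + strand, Egr2, chr10:67537619-67537868 on the + strand, Junb, chr8:84978749-84978998 on the - strand, Dusp1, chr17:26508520-26508722 on the - strand, and Npas4, chr19:4990129-4990156 on the - strand.
Fos: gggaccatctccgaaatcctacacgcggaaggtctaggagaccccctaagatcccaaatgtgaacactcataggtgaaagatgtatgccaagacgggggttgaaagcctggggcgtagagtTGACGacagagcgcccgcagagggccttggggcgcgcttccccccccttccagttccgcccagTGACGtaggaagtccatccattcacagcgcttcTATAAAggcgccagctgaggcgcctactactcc
Egr2: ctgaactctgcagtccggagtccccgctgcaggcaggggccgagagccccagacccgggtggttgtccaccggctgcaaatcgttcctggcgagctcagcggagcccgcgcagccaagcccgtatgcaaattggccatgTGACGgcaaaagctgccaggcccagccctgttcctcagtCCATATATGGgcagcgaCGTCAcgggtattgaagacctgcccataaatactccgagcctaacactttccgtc
Junb: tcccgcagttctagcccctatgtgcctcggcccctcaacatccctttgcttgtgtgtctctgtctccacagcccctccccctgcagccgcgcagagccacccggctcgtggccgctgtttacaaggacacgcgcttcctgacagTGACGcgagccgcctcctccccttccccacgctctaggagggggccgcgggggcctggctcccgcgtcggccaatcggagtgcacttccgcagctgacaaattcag
Dusp1: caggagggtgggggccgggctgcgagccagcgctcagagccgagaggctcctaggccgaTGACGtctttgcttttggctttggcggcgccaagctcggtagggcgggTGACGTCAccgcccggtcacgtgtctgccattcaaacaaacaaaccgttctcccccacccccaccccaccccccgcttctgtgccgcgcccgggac
Npas4: gttcgaCGTCAcgggaTGACGtcggaag

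Library totals ran from 14656714 to 17694570 counts. The first principal component of the log2 CPM values (CPM, counts relative to the scaled library total) held 31.3% of the variance. On it SSDS-GFP 3 and SSDS-shACOT12 1 and 3 scored 35.7 to 63.1 and the other 9 libraries -30.4 to 5.82. The share of mitochondrial counts was 3.23% and 4.31% in SSDS-shACOT12 1 and 3 and 6.31% to 9.24% elsewhere. The summed level of 10 neuron markers was 5251 to 7265 CPM, with no marker under 1 CPM in all 12 libraries. These are markers of neurons in general, so they cannot tell the ventral hippocampus from other brain regions, and the region was not checked.

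Compared per length, in the FPKM deposited by the authors, the genes covered a wide range in control tissue. Arc had the highest mean level at 21.2 ± 7.13 FPKM (SD, n = 3 here and for all means below), followed by Junb at 20.3 ± 3.22, Egr1 at 15.3 ± 6.22 and Nr4a1 at 11.0 ± 2.86. The control libraries of each of these overlapped in range with those of the next. A lower tier held Dusp1 at 4.41 ± 0.390 FPKM and Ier2 at 3.87 ± 1.35. Npas4 at 1.83 ± 0.838, Fos at 1.54 ± 0.801, Fosb at 0.689 ± 0.118 and Egr2 at 0.279 ± 0.137 FPKM were lowest. In SSDS-GFP the mean of Fos was 7.42 ± 2.16 FPKM, above the 2.19 ± 0.806 of Npas4. From here levels of one gene are given as CPM, which are not corrected for length.

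**Figure D1:**
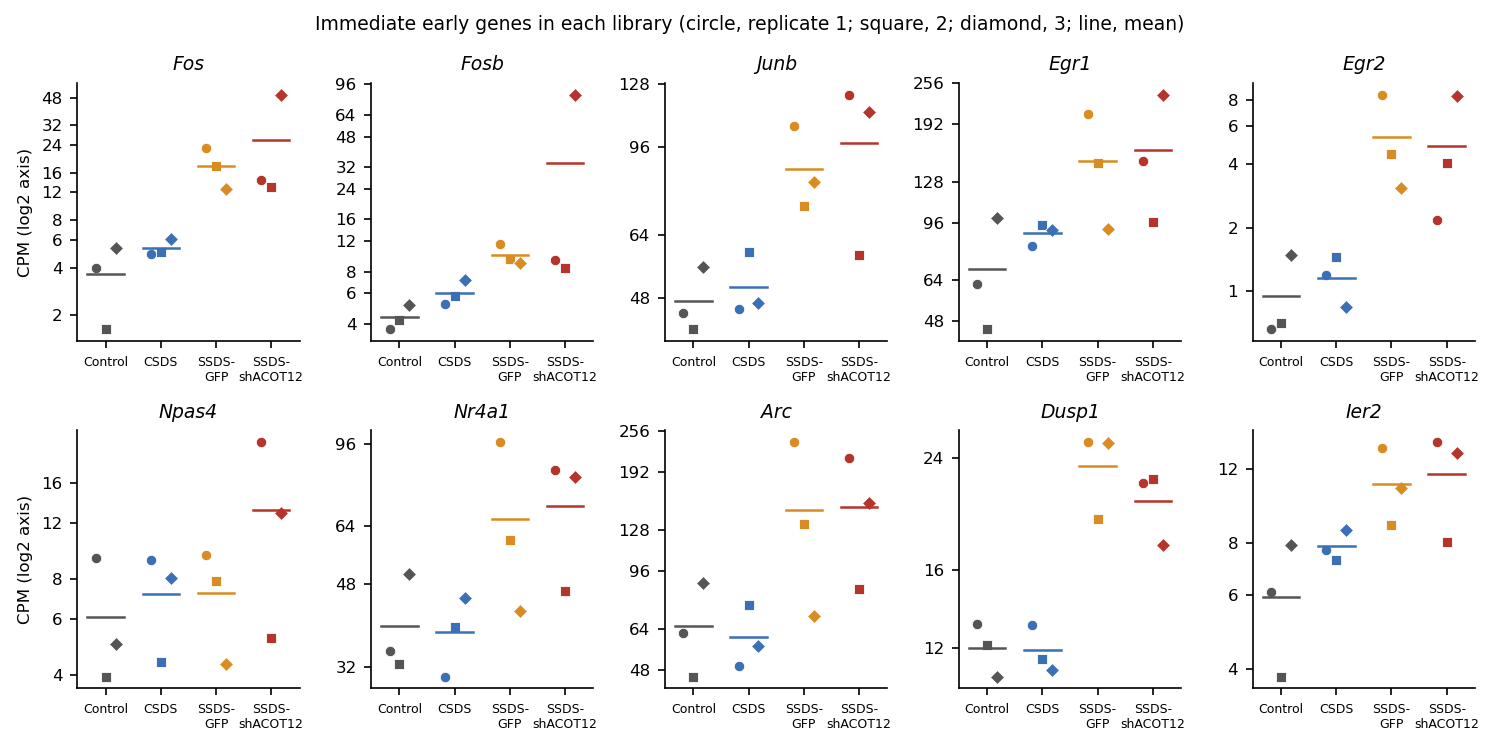
Level of each gene in every library, in CPM on a log2 axis, by group, where a horizontal line is the mean of 3 libraries. The 6 SSDS libraries lie above all 6 control and CSDS libraries for Fos, Fosb, Egr2 and Dusp1, and Npas4 overlaps between all groups.

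Fos, Fosb and Junb encode subunits of the AP-1 transcription factor, in which a Fos protein pairs with a Jun protein. Fos (ENSMUSG00000021250, chromosome 12, 85473890 to 85477273) stood at 3.98, 1.62 and 5.35 CPM in control tissue and 4.88, 4.99 and 6.04 CPM in CSDS. Its levels were 22.8, 17.5 and 12.6 CPM in the SSDS-GFP libraries and 14.3, 13.0 and 49.99 CPM in those of SSDS-shACOT12. Each SSDS library was thus above each library of the other groups, and SSDS-shACOT12 3 was 2.19 times the next highest. The log2 fold change against control was 2.26 ± 0.51 (SE) in SSDS-GFP (adjusted p = 0.116) and 2.81 ± 0.51 in SSDS-shACOT12 (adjusted p = 0.0531), with edgeR's quasi-likelihood test and Benjamini-Hochberg adjustment, as everywhere below unless another tool is named.

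Fosb (ENSMUSG00000003545, chromosome 7, 19302696 to 19310051), whose truncated product ΔFosB builds up with repeated stimulation, was measured as a gene, so the full and truncated forms were not told apart. Its levels were 3.71, 4.22 and 5.12 CPM in control and 5.20, 5.75 and 7.18 in CSDS, against 11.6, 9.45 and 8.92 in SSDS-GFP, with 9.34, 8.40 and 83.7 in SSDS-shACOT12. The control, CSDS and SSDS libraries formed 3 tiers that did not overlap. SSDS-shACOT12 3 stood 7.25 times above the next highest library, from 1351 counts against 56 to 160 elsewhere. DESeq2 gave no p for Fosb. With that library the log2 fold change of SSDS-shACOT12 against control was 2.95 ± 0.70 (adjusted p = 0.0574), and without it 1.01 (adjusted p = 0.189).

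Junb (ENSMUSG00000052837, chromosome 8, 84974484 to 84978718) was the most abundant of the 3, with means of 47.2 ± 7.16 CPM in control and 50.5 ± 7.57 in CSDS, against 86.9 ± 16.8 in SSDS-GFP and 97.7 ± 34.3 in SSDS-shACOT12. The lowest SSDS library, SSDS-shACOT12 2 at 58.4 CPM, lay just under the highest CSDS library at 59.2 and above all controls. Junb overlaps Prdx2 on the other strand, and the library kit named does not mark strand, so reads from the overlap cannot be told apart.

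Egr1 and Egr2 encode zinc-finger transcription factors. Egr1 (ENSMUSG00000038418, chromosome 18, 34859823 to 34864984) stood at 62.5, 45.4 and 99.5 CPM in control and 81.7, 94.2 and 91.5 in CSDS, against 207, 146 and 91.7 in SSDS-GFP, with 148, 96.5 and 236 in SSDS-shACOT12. The groups overlapped: SSDS-GFP 3 and SSDS-shACOT12 2 lay below Control 3. Against control the log2 fold changes were 1.10 ± 0.35 in SSDS-GFP (adjusted p = 0.175) and 1.21 ± 0.35 in SSDS-shACOT12 (adjusted p = 0.0800). Egr2 (ENSMUSG00000037868, chromosome 10, 67535475 to 67542188), whose CArG box is printed above, was the scarcest of the genes. It stood at 0.663, 0.714 and 1.49 CPM in control and 1.19, 1.45 and 0.845 in CSDS, from 10 to 25 counts a library. In SSDS-GFP it stood at 8.45, 4.46 and 3.09 CPM and in SSDS-shACOT12 at 2.17, 4.01 and 8.36, from 35 to 135 counts. No SSDS library overlapped the others. Its log2 fold change against control was 2.45 ± 0.54 in SSDS-GFP (adjusted p = 0.107) and 2.32 ± 0.54 in SSDS-shACOT12 (adjusted p = 0.0550).

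Npas4 encodes a neuron-specific transcription factor that shapes inhibitory synapses, and Nr4a1 an orphan nuclear receptor. Npas4 (ENSMUSG00000045903, chromosome 19, 4984355 to 4989971) stood at 9.28, 3.96 and 5.00 CPM in control and 9.14, 4.41 and 8.03 in CSDS, against 9.53, 7.88 and 4.35 in SSDS-GFP, with 21.5, 5.22 and 12.8 in SSDS-shACOT12. All groups overlapped, and only SSDS-shACOT12 1 and 3 exceeded 9.53 CPM. The log2 fold change of SSDS-GFP against control was 0.25 ± 0.48 (adjusted p = 0.845), the smallest of the 10 genes in that contrast, and in SSDS-shACOT12 it was 1.12 ± 0.47 (adjusted p = 0.174). Nr4a1 (ENSMUSG00000023034, chromosome 15, 101254269 to 101274795) averaged 39.1 ± 9.84 CPM in control and 38.0 ± 7.18 in CSDS, against 66.2 ± 27.9 in SSDS-GFP and 70.7 ± 20.96 in SSDS-shACOT12. SSDS-GFP 3 at 42.2 CPM and SSDS-shACOT12 2 at 46.5 CPM lay within the control range of 32.4 to 50.4.

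Arc, Dusp1 and Ier2 act outside or beside this transcription factor network. Arc (ENSMUSG00000022602, chromosome 15, 74669083 to 74672570) encodes a synaptic protein that drives the removal of AMPA receptors. It stood at 62.1, 45.8 and 88.6 CPM in control and 49.3, 75.8 and 56.6 in CSDS, against 238, 134 and 70.0 in SSDS-GFP, with 212, 84.9 and 155 in SSDS-shACOT12. As with Egr1, SSDS-GFP 3 and SSDS-shACOT12 2 lay below the highest control, and the log2 fold changes against control were 1.17 ± 0.41 (adjusted p = 0.204) and 1.202 ± 0.41 (adjusted p = 0.108).

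Dusp1 (ENSMUSG00000024190, chromosome 17, 26505590 to 26508519) encodes a phosphatase that switches off MAP kinases and is also a target of glucocorticoids. It stood at 13.1, 12.1 and 10.8 CPM in control and 13.1, 11.6 and 11.1 CPM in CSDS. In SSDS-GFP it stood at 25.5, 19.2 and 25.4 CPM and in SSDS-shACOT12 at 22.0, 22.3 and 17.5 CPM. The 6 SSDS libraries did not overlap the other 6, and the spread of Dusp1 was small in each group, with SDs of 1.04 to 3.58 CPM. It was the only one of the 10 to pass against control in SSDS-GFP, with a log2 fold change of 0.96 ± 0.16 and adjusted p = 0.0440. Ier2 (ENSMUSG00000053560, chromosome 8, 84661331 to 84662852), a nuclear protein of less settled function, averaged 5.95 ± 2.04 CPM in control and 7.84 ± 0.669 in CSDS, against 11.0 ± 2.36 in SSDS-GFP and 11.7 ± 3.19 in SSDS-shACOT12, and every SSDS library was above every control.

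**Figure D2:**
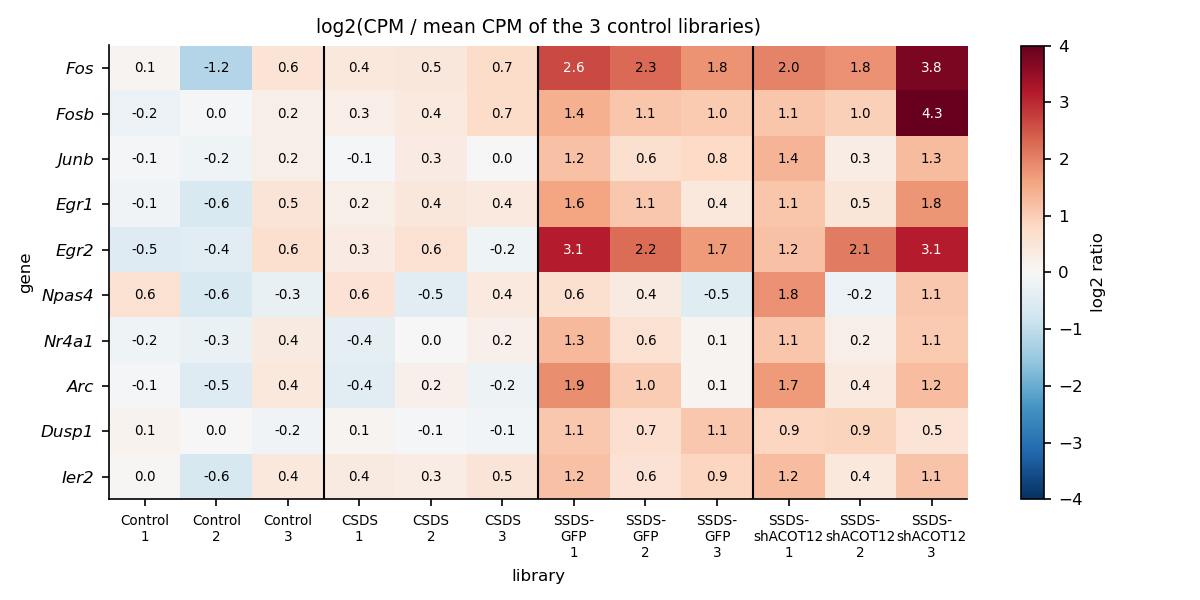
Heat map of log2(CPM divided by the mean CPM of the control libraries) for each gene (rows) in each library (columns). The SSDS columns are mostly red, darkest for Fos and Fosb in SSDS-shACOT12 3. SSDS-GFP 3 and SSDS-shACOT12 2 are paler than the other libraries of their groups for Egr1, Nr4a1 and Arc. For Npas4 these 2 libraries lie below the control mean, on the blue side.

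The libraries of a group tended to be high or low for many of the genes at once. SSDS-GFP 1 was the highest library of its group for all 10 genes and SSDS-GFP 3 the lowest for 7. SSDS-shACOT12 2 was the lowest of its group for 8, Control 3 the highest of its group for 8 and Control 2 the lowest for 7. The summed level of the 10 genes was 240.9, 191.6 and 329.5 CPM in control and 248.2, 303.5 and 281.4 in CSDS, against 738.1, 480.0 and 350.9 in SSDS-GFP, with 649.0, 347.3 and 770.8 in SSDS-shACOT12. The sums of all SSDS libraries exceeded those of all others, SSDS-shACOT12 2 by the least. On the first component, SSDS-shACOT12 1 and 3, with high sums, stood apart and SSDS-shACOT12 2, with the lowest of its group, did not. In SSDS-GFP it was library 3, with the lowest sum of its group, that stood apart, and 1 and 2 did not.

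Setting CSDS beside control tissue addresses what CSDS alone changes in this region. None of the 10 genes passed, and none had an unadjusted p under 0.05. Of all genes tested 0 passed (0%), 993 had an unadjusted p under 0.05 with edgeR and DESeq2 called 5. Of all genes tested 2.86% were higher at an unadjusted p under 0.05. Log2 fold changes ran from -0.11 ± 0.40 for Arc to 0.53 ± 0.52 for Fos, with a median of 0.26, against 0.001 over all genes. That median was 0.06 without Control 2 and 0.42 without Control 3. In 7 genes the value was positive. Fosb was the only one whose 3 CSDS libraries all exceeded the 3 controls, which held for 10.2% of all genes. This fit takes its spread from all 12 libraries, among which the SSDS groups varied most. Fitting only the 6 control and CSDS libraries called 84 genes (0.515%) with 0 of the 10. In that fit 2535 of 16325 genes, and 1 of the 10, had an unadjusted p under 0.05.

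Setting SSDS-GFP beside control addresses SSDS combined with the eGFP virus. All 10 log2 fold changes were positive, from 0.25 ± 0.48 in Npas4 to 2.45 ± 0.54 in Egr2, with a median of 1.03 against 0.01 over all genes. Dusp1 passed, among 16 genes called (0.0946% of those tested). At an unadjusted p under 0.05, 8 of the 10 were higher, all but Fosb and Npas4, against 8.92% of all genes. In 6 of the 10, Fos, Fosb, Junb, Egr2, Dusp1 and Ier2, every SSDS-GFP library exceeded every control, against 12.5% of all genes. The call on Dusp1 was narrow. It was lost without Control 1, 2 or 3 (adjusted p = 0.185, 0.172 and 0.163) and without SSDS-GFP 1 or 3 (0.277 and 0.148), with log2 fold changes of 0.88 to 1.03, and over all alternatives its adjusted p ran from 5.99e-05 to 0.277. With the replicate number as a block it was 0.0719, though same-numbered control and SSDS-GFP libraries did not deviate together. DESeq2 called 5 of the 10, adding Fos, Junb, Egr1 and Egr2, among 523 genes (1.60% of 32714). That run differs in its filter as well as its test, since no count minimum was set before it. DESeq2 also withholds adjusted p-values from genes of low mean count, so its share of 32714 may be too low.

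In SSDS-shACOT12 against the same control libraries, all 10 log2 fold changes were again positive, from 0.77 ± 0.16 in Dusp1 to 2.95 ± 0.70 in Fosb, with a median of 1.16 against 0.01 over all genes. None of the 10 passed, among 14 genes called (0.0828%), with adjusted p from 0.0531 for Fos and Dusp1 to 0.174 for Npas4. All 10 had an unadjusted p under 0.05 and were higher, against 13.6% of all genes. The same 6 genes as in SSDS-GFP had every library above every control, against 14.0% of all genes, and both contrasts use the same 3 control libraries. DESeq2 called 6 of the 10 among 1536 genes (4.70% of 32714, with no count minimum). The count rested on SSDS-shACOT12 2: without it all 10 passed, among 4232 genes (24.5% of those then tested). Without SSDS-shACOT12 1, Fos, Fosb and Egr2 passed among 302 genes (1.74%).

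**Figure D3:**
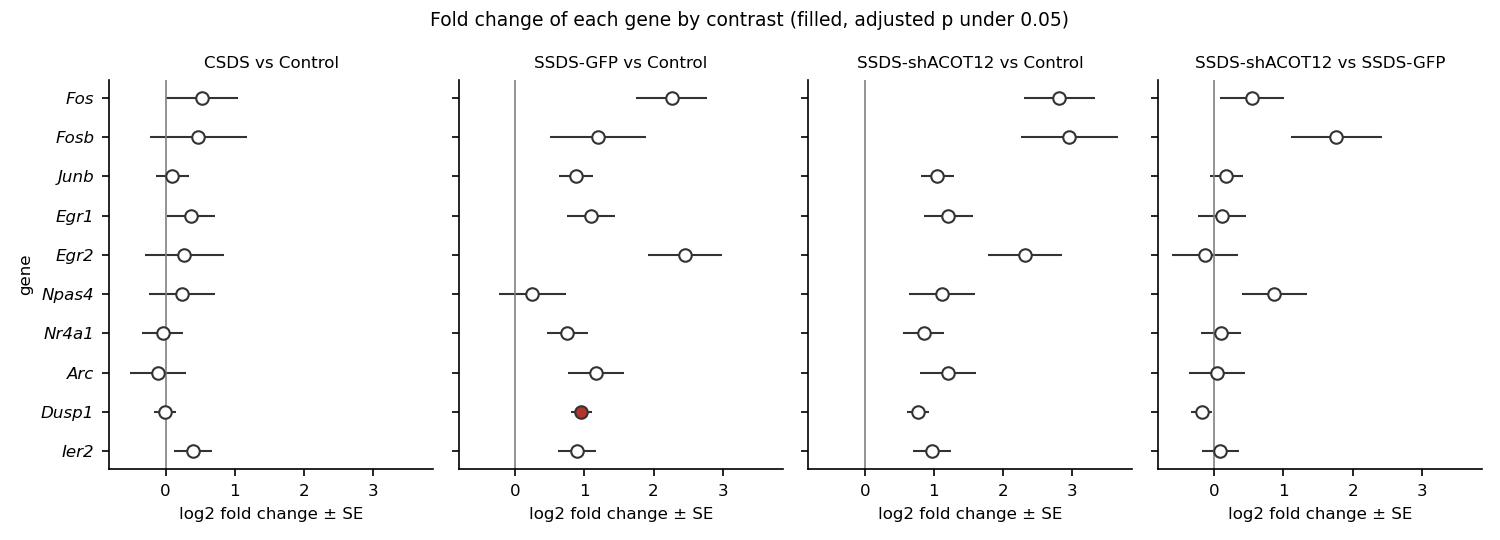
Log2 fold change with its standard error for each gene in 4 contrasts, filled where the adjusted p is under 0.05. The values lie between -0.11 and 0.53 in CSDS and between 0.25 and 2.95 in both SSDS groups, each against control. Between the SSDS groups they run from -0.18 to 1.76, and there Fosb (1.76), Npas4 (0.87) and Fos (0.55) lie farthest from 0.

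The hepatic knockdown under SSDS is addressed by setting SSDS-shACOT12 beside SSDS-GFP. None of the 10 genes passed and 0 of all genes did (0%), with 766 genes at an unadjusted p under 0.05 with edgeR and 0 called by DESeq2. The median log2 fold change of the 10 was 0.10, against 0.01 over all genes, and leaving out 1 library it ran from -0.04 (without SSDS-shACOT12 3) to 0.45 (without SSDS-GFP 1). Values ran from -0.18 ± 0.15 in Dusp1 to 1.76 ± 0.66 in Fosb. Fosb was the only one with an unadjusted p under 0.05 (adjusted p = 0.802), against 1.84% of all genes higher at that p. Without SSDS-shACOT12 3 its log2 fold change was -0.16. Without SSDS-shACOT12 2, Fosb passed at a log2 fold change of 2.21, among 985 genes (5.70% of those then tested). In none of the 10 did every SSDS-shACOT12 library exceed every SSDS-GFP library, which held for 2.23% of all genes.

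Since all SSDS libraries carried virus and the other 6 did not, both SSDS groups were also set against control and CSDS together, a contrast chosen after the values were seen. Dusp1, Fos, Egr2 and Junb rose in the SSDS libraries, 4 of the 10 among 102 genes called (0.603%). Their log2 fold changes were 0.87 ± 0.11 for Dusp1 (adjusted p = 0.00605), 2.27 ± 0.36 for Fos (0.0197), 2.25 ± 0.37 for Egr2 (0.0269) and 0.92 ± 0.17 for Junb (0.0424). Arc, Egr1, Nr4a1, Ier2 and Fosb had adjusted p from 0.0571 to 0.0684, and Npas4 had 0.331 at a log2 fold change of 0.56 ± 0.33. At an unadjusted p under 0.05, 9 of the 10 were higher, against 13.3% of all genes. Fos, Fosb, Egr2 and Dusp1 had all 6 SSDS libraries above all 6 others, which held for 1.25% of all genes. Dusp1 passed in each of the 23 alternatives run, while Fos lost its call in 5, Egr2 in 7 and Junb in 10 of them. Fos was lost without Control 1, CSDS 1, 2 or 3, or SSDS-GFP 1 (adjusted p 0.0563 to 0.0820), and Egr2 in these cases and without Control 2 (0.0563 to 0.116). Junb was lost without any single control or CSDS library, SSDS-GFP 1 or 3, or SSDS-shACOT12 3 (0.0611 to 0.159), and with the replicate number as a block Egr2 and Junb had adjusted p = 0.0532 and 0.0701. Without SSDS-shACOT12 3, Fosb passed at a log2 fold change of 0.86 (adjusted p = 0.0382), against 1.84 with it. Leaving out the 3 libraries that stood apart on the first component leaves SSDS-GFP 1 and 2 and SSDS-shACOT12 2, so SSDS-shACOT12 rests on 1 library. The log2 fold changes were then 0.91 for Dusp1, 1.88 for Fos, 2.26 for Egr2 and 0.57 for Junb. Without SSDS-shACOT12 2, 9 of the 10 passed, among 3280 genes (19.0% of those then tested). A test of any difference among the 4 groups called Dusp1 alone of the 10 (adjusted p = 0.0392), among 15 genes (0.0887%), and 9 of the 10 had an unadjusted p under 0.05 there, all but Npas4, against 14.4% of all genes. Without SSDS-shACOT12 2 that test called 9 of the 10, among 2181 genes (12.6% of those then tested).

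Another 30 immediate early genes were followed in the same fits. Of these, 13 had positive values in CSDS against control (median log2 fold change -0.05), 24 in SSDS-GFP against control (median 0.32) and 26 in SSDS-shACOT12 against control (median 0.44), with 0 called in each. In the pooled SSDS contrast 27 were positive, with a median of 0.41. Gadd45b and Jun rose, 2 of the 30, where 0.603% of all genes were called. Gadd45b, which acts in DNA demethylation, averaged 14.8 ± 0.893 CPM in control and 14.3 ± 3.33 in CSDS, against 28.5 ± 3.53 in SSDS-GFP and 32.7 ± 16.9 in SSDS-shACOT12, a pooled log2 fold change of 1.07 ± 0.20 (adjusted p = 0.0424). Jun, the AP-1 partner of Fos, stood at 118.1, 117.3 and 120.2 CPM in control and 116.3, 144.1 and 108.2 in CSDS, against 173.8, 158.6 and 217.4 in SSDS-GFP, with 145.4, 164.3 and 166.9 in SSDS-shACOT12 (0.50 ± 0.10, adjusted p = 0.0467). Both had all 6 SSDS libraries above the other 6, which held for 3 of the 30 genes and 1.25% of all genes. For Jun the gap was narrow, with 145.4 CPM in SSDS-shACOT12 1 against 144.1 in CSDS 2. Fosl2, another Fos family member, had adjusted p = 0.0531 in SSDS-shACOT12 against control, at 33.8, 83.4 and 128.2 CPM against 28.8 to 29.8 CPM. In CSDS against control the smallest p-values were those of Maml3, a Notch coactivator, and of the nuclear receptor Nr4a2, both with adjusted p = 0.849. Their log2 fold changes had opposite signs, -0.68 ± 0.29 for Maml3 and 0.72 ± 0.33 for Nr4a2. Between the SSDS groups the smallest p-values were those of Zfp36, which destabilises mRNAs, and of Ier5, both with adjusted p = 0.802. Here the log2 fold changes were -1.06 ± 0.44 for Zfp36 and 0.68 ± 0.35 for Ier5.

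**Figure D4:**
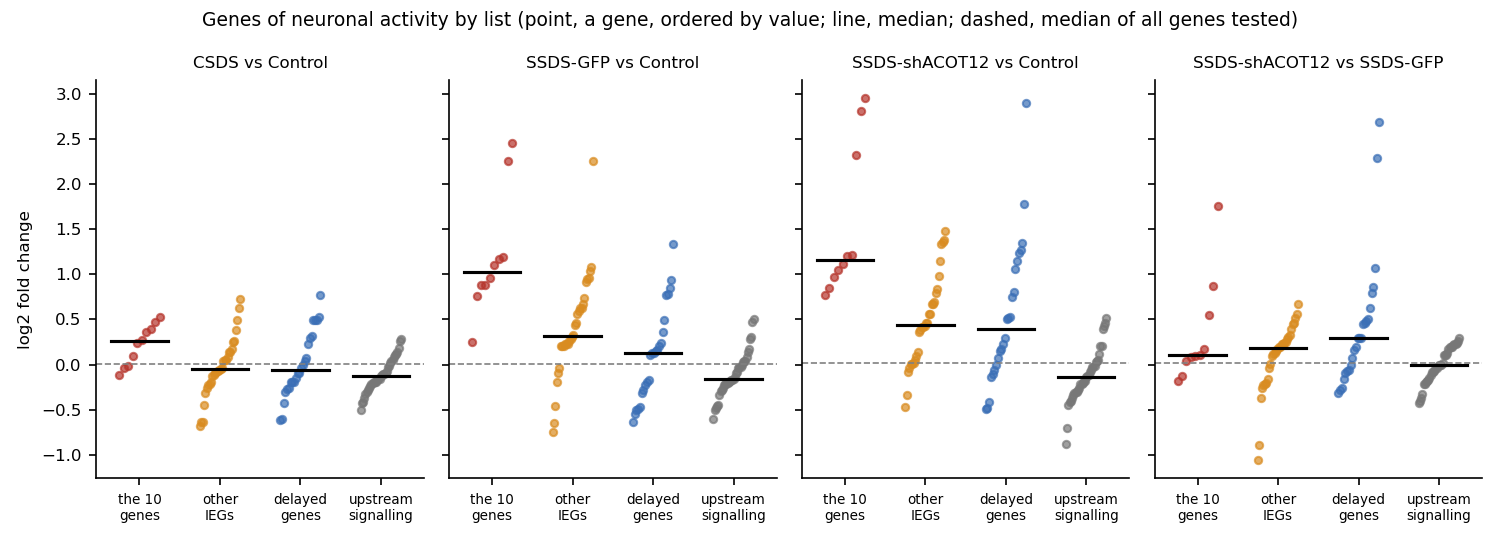
Log2 fold change of each gene of 4 lists in 4 contrasts, with the list's median as a line and the median of all genes tested dashed. In both SSDS groups against control the median of the 10 genes (1.03 and 1.16) lies above those of the other immediate early genes (0.32 and 0.44), the delayed genes (0.13 and 0.40) and upstream signalling (-0.15 and -0.13).

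The later wave was followed through 24 delayed activity-regulated genes, of which 0 were called in any contrast, with smallest adjusted p of 0.0531. Positive values were found for 10 in CSDS against 14 in SSDS-GFP and 18 in SSDS-shACOT12, each set beside control, with medians of -0.06, 0.13 and 0.40. Bdnf, the neurotrophin, averaged 64.05 ± 21.1 CPM in control and 60.0 ± 12.2 in CSDS, against 52.7 ± 20.3 in SSDS-GFP and 91.5 ± 81.5 in SSDS-shACOT12, and Homer1, a postsynaptic scaffold, 95.3 ± 27.5, 111.5 ± 17.1, 105.7 ± 60.8 and 100.5 ± 33.9 CPM. The groups overlapped for both. Vgf and Sst, both neuropeptide genes, had the smallest p-values in SSDS-shACOT12 against control (adjusted p = 0.0531 and 0.0537), with every library above every control. That held for 3 of the 24 genes, against 14.0% of all genes, and for Vgf and Sst it held in CSDS too. Vgf stood at 224.9, 205.9 and 574.5 CPM in SSDS-shACOT12, highest in library 3, and at 130.8 to 132.2 in control. Sst averaged 139.2 ± 22.8 CPM in control and 199.9 ± 38.0 in CSDS, against 237.0 ± 91.9 in SSDS-GFP and 290.7 ± 33.2 in SSDS-shACOT12.

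SSDS-shACOT12 3, the library with the outlying Fosb, also had outlying values of delayed genes. Penk, the enkephalin precursor, stood there at 620.4 CPM against 48.2 and 23.3 in the other libraries of its group and 20.9 to 38.3 elsewhere. Nptx2, which clusters AMPA receptors, stood at 228.9 CPM there against 12.8 to 38.3 in all other libraries, and Bdnf at 185.3 against 30.0 to 86.1. Penk and Nptx2 had the smallest p-values of this list between the SSDS groups, with log2 fold changes of 2.69 ± 0.85 and 2.29 ± 0.70 and adjusted p = 0.802 for both. Acan, a protein of perineuronal nets, and the receptor Gpr3 had the smallest beside Sst in CSDS and SSDS-GFP against control, with adjusted p = 0.849 and 0.263.

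Upstream of these genes, 35 genes of receptors, channels, kinases and transcription factors were followed, and 0 were called in any contrast. Beside control, the median was -0.13 in CSDS and in SSDS-shACOT12, and -0.15 in SSDS-GFP, with 10 of 35 positive in each. Grin2b, an NMDA receptor subunit, averaged 544.8 ± 99.0 CPM in control and 383.2 ± 55.6, 359.0 ± 73.0 and 410.7 ± 75.9 in CSDS, SSDS-GFP and SSDS-shACOT12 (adjusted p = 0.849, 0.175 and 0.211 against control). Camk2a, a calcium-dependent kinase, averaged 3751 ± 274.6 CPM in control and 2903 ± 160.6, 2681 ± 384.6 and 2894 ± 735.9 in those groups. Hdac4, a histone deacetylase that activity sends out of the nucleus, averaged 36.8 ± 2.83 CPM in control and 41.6 ± 1.94 in CSDS, against 52.3 ± 0.998 in SSDS-GFP and 49.6 ± 6.02 in SSDS-shACOT12, with adjusted p = 0.116 and 0.0714 for the last pair against control. Cacna1d, an L-type calcium channel, averaged 51.9 ± 3.68 CPM in control and 36.7 ± 3.45 in SSDS-GFP (adjusted p = 0.130). Of the genes with the smallest p elsewhere in this list, Map2k2, a MAP kinase kinase, had adjusted p = 0.0904 in SSDS-shACOT12 against control, and Hdac5 and Arnt2, a partner of Npas4, 0.802 between the SSDS groups. Their log2 fold changes there were 0.52 ± 0.16, 0.29 ± 0.16 and 0.23 ± 0.13.

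Markers of some cell types moved with the groups too, and their part in the results above was not tested. The neuron, astrocyte, microglia and oligodendrocyte lists had 0 called in any contrast. Their medians in SSDS-GFP against control were 0.15, -0.13, 0.06 and 0.10, and in SSDS-shACOT12 against control 0.10, -0.16, 0.10 and 0.006. Of 14 dentate granule cell markers 11 had negative values in SSDS-GFP and in SSDS-shACOT12 against control, with medians of -0.49 and -0.80, and 12 in CSDS, with a median of -0.44. Their summed level was 1408 to 1633 CPM in control, 1064 to 1378 in CSDS, 1205 to 1225 in SSDS-GFP and 857.3 to 1158 in SSDS-shACOT12. Stxbp6, a regulator of vesicle fusion, fell in SSDS-shACOT12 against control, by 1.07 ± 0.16 on the log2 scale (adjusted p = 0.0302). The summed level of the 10 pyramidal neuron markers was 5215 to 6020 CPM in control, 5389 to 6281 in CSDS, 4841 to 6706 in SSDS-GFP and 4930 to 6683 in SSDS-shACOT12, with 0 called. For the 10 interneuron markers it was 858.5 to 963.5 CPM in control and 985.7 to 1029 in CSDS, against 923.7 to 1065 in SSDS-GFP and 1072 to 1431 in SSDS-shACOT12, so that CSDS and SSDS-shACOT12 lay wholly above control. The 12 choroid plexus and ependymal markers summed to 568.3, 185.6 and 48.24 CPM in the control libraries, which every contrast with control shares, and to 22.28 to 67.79 CPM in the other 9. Only 8 of them had enough counts to be tested. Against control, 4 of the 8 were higher in each SSDS group and 0 in CSDS. Ttr, which encodes transthyretin, was called among the 4 groups (adjusted p = 0.0419), and Kcnj13 was under 1 CPM in all libraries. For the 12 endothelial and mural markers the summed level was 492.7 to 558.7 CPM in control, 476.1 to 621.4 in CSDS and 433.6 to 538.5 in the SSDS libraries. In the pooled contrast 4 of the 12 were higher, and the list's median was -0.24. Pecam1 was the only one of them called there, where 0.603% of all genes were, and fell by 0.65 ± 0.13 (adjusted p = 0.0424). Hbb-bs, of 9 blood cell markers, stood at 172.8 to 222.2 CPM in CSDS and 35.1 to 87.8 in all other libraries. Over all genes tested, the median log2 fold change of the genes in the shortest eighth by exonic length was 0.20 in SSDS-GFP and 0.24 in SSDS-shACOT12 against control, and that of the longest -0.14 and -0.18. With that trend removed in each library, the median of the 10 genes was 0.99 and 1.10.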

How the data were processed

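RNA of the ventral hippocampus was sequenced in 12 libraries of 4 groups. Per the submitters' processing notes, the authors used HISAT2 2.0.5, featureCounts 1.5.0-p3 and DESeq2 with build mm10, and the strand setting is not given in the sources used here. The deposited count table holds unscaled whole-number counts. The deposited FPKM were scaled by the authors for gene length and library size, and the gene length column is in bases, per the file headers. Every per-sample column matched a sample.

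The 10 genes and all lists were chosen with earlier results of these data known. Groups and replicate numbers follow the labels. Counts were filtered with filterByExpr (minimum count 10, minimum total 15), scaled by TMM and fitted with edgeR 4.0.16 (R 4.3.3), group being the only factor over 12 libraries. Calls are 2-sided, Benjamini-Hochberg adjusted p under 0.05 over 16915 genes. CPM use the TMM-scaled library. The fits were tested on simulated counts in which all groups shared the spread of each gene. The unequal spread between the groups, given below, was not part of that simulation, which cannot show how the fits handle it. Named are all 10 genes, 4 fixed genes (Bdnf, Homer1, Nptx2, Jun), up to 4 called genes per activity list and contrast or else the 2 with the smallest p, and the 10 genes most correlated with the set. Stxbp6, Pecam1, Ttr, Kcnj13 and Hbb-bs were named after their values were seen. Alternatives were other scalings, filters, DESeq2 1.42.0, limma 3.58.1 on log2(FPKM + 0.1 or 1), voom quality weights, a replicate block and libraries left out. The pooled SSDS contrast, the block in the 6 SSDS libraries alone and leaving out 3 libraries were chosen after the data were seen.

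Same-numbered SSDS-GFP and SSDS-shACOT12 libraries deviated together, with correlations of 0.196, 0.353 and 0.419, against -0.383 to -0.0180 for different numbers. All 3 pass the bound of 0.1 set for a pairing. Different-numbered libraries of other groups pass it too, such as Control 2 with SSDS-GFP 3 (0.279) and CSDS 2 with SSDS-GFP 1 (0.223). Each deviation is from a mean of only 3 libraries, which ties them together. The bound therefore cannot tell a pairing from chance, and the numbers were treated only as a possible pairing of these 2 groups. The labels do not say what a number shares. No 2 libraries of a group agreed within sampling noise, with a chi-square of at least 7.13 times its degrees of freedom. That ratio was 10.4 to 13.5 in control and 7.13 to 12.3 in CSDS, against 20.4 to 52.7 in SSDS-GFP and 29.1 to 86.6 in SSDS-shACOT12. The main fit gives all 4 groups 1 shared spread per gene.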

Additional observations from a re-analysis of the deposited data

How the results depend on the processing

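DESeq2 was run with no count minimum and so changes the filter too. DESeq2 also withholds adjusted p-values from genes of low mean count. Brackets give the share of all genes tested, which for DESeq2 are those with an unadjusted p. Its shares may thus be too low for the genes that could be called. Its calls were 5 genes in CSDS against control (0.0153%). They were 523 with 5 of the 10 immediate early genes in SSDS-GFP (1.60%) and 1536 with 6 in SSDS-shACOT12 (4.70%). The pooled SSDS contrast had 1241 with 8 (3.79%) and the test over any of the 4 groups 733 with 6 (2.24%). With no filter on low counts the first 3 of these were 132 genes (0.403%), 608 with 9 (1.85%) and 1741 with 10 (5.31%). The pooled contrast then had 1508 with 9 (4.60%), any group 1457 with 10 (4.45%), and the SSDS groups against each other 108 with 1 (0.329%). With library quality weights in limma-voom, CSDS had 34 genes (0.201%), SSDS-GFP 2239 with 8 (13.2%) and SSDS-shACOT12 4172 with 10 (24.7%). The pooled contrast and the test over any group each had 4440 with 9 (26.2%). Requiring at least 50 counts in 3 libraries gave 350 genes with 4 of the 10 in SSDS-shACOT12 against control (2.65%). On log2 FPKM with either pseudocount, SSDS-GFP had 0 of the 10 called among 12 genes (0.0709%). With a pseudocount of 1, SSDS-shACOT12 had 24 genes (0.142%) and the test over any group 0 of the 10 among 13 (0.0769%). With the length trend removed, SSDS-GFP had 0 of the 10 among 17 genes (0.101%) and SSDS-shACOT12 had 7 genes (0.0414%). Fitting only the 6 libraries compared gave 84 genes in CSDS (0.515%), 34 with 0 of the 10 in SSDS-GFP (0.210%) and 0 in SSDS-shACOT12.

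With the replicate number as a block over all 12 libraries, the calls were 9 genes with 0 of the 10 in SSDS-GFP (0.0532%) and 3 genes in SSDS-shACOT12 (0.0177%). They were 30 with 2 in the pooled contrast (0.177%) and 8 with 0 over any group (0.0473%). Same-numbered control libraries did not deviate with SSDS-GFP (-0.259 to -0.0625) or SSDS-shACOT12 (-0.155 to -0.104). The block therefore cannot show what a pairing would do to contrasts with control. In the 6 SSDS libraries alone the block called 0 genes.

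Leaving out SSDS-GFP 3 and SSDS-shACOT12 1 and 3 leaves SSDS-shACOT12 with 1 library, number 2, which is assumed to vary like the other groups, so its values rest on that library. The calls were then 30 genes in CSDS (0.167%), 216 with 8 in SSDS-GFP (1.21%) and 735 with 3 in SSDS-shACOT12 (4.10%). They were 20 between the SSDS groups (0.112%), 541 in the pooled contrast (3.02%) and 474 with 8 over any group (2.65%). The median of the 10 genes was then 0.466 in SSDS-shACOT12 against control and -0.652 between the SSDS groups, where single genes took the other sign: Fos -0.628, Fosb -0.314, Junb -0.607, Egr1 -0.866, Arc -1.123, Npas4 -0.729, Nr4a1 -0.742, Ier2 -0.466 and Dusp1 0.002. Npas4 was -0.202 in SSDS-shACOT12 against control. With quality weights Egr1, Arc and Nr4a1 were -0.025, -0.114 and -0.031 between the SSDS groups. The cause of these changes was not tested.

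Leaving out 1 library at a time gave 0 to 1 genes in CSDS (at most 0.00578%) and 4 to 15 with 0 to 1 of the 10 in SSDS-GFP (0.0231% to 0.0866%). It gave 1 to 4232 with 0 to 10 in SSDS-shACOT12 (0.00578% to 24.5%). Between the SSDS groups it gave 0 to 985 with 0 to 1 (at most 5.70%). The pooled contrast had 9 to 3280 with 1 to 9 (0.0521% to 19.0%), and any group 1 to 2181 with 0 to 9 (0.00578% to 12.6%). The median of the 10 ran from 0.064 to 0.424 in CSDS, 0.734 to 1.24 in SSDS-GFP, 0.866 to 1.47 in SSDS-shACOT12, 0.822 to 1.07 in the pooled contrast and -0.042 to 0.446 between the SSDS groups. Log2 fold changes that took the other sign ran, in CSDS against control, from -0.035 to 0.234 for Junb, -0.310 to 0.176 for Arc, -0.167 to 0.191 for Nr4a1 and -0.086 to 0.054 for Dusp1. Npas4 in SSDS-GFP against control ran from -0.007 to 0.688. Between the SSDS groups the ranges were -0.359 to 0.859 for Fos, -0.161 to 2.212 for Fosb, -0.026 to 0.424 for Junb, -0.275 to 0.422 for Egr1, -0.772 to 0.359 for Egr2, -0.307 to 0.561 for Arc, -0.151 to 0.470 for Nr4a1 and -0.067 to 0.281 for Ier2. In the pooled contrast no gene of the 10 changed sign in any alternative run.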

Other observations

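The genes whose levels most resembled the 10 together were ranked by Pearson's correlation over the 12 libraries between their log2 CPM and the mean standardised level of the 10, among 13628 genes. These are descriptions with no p, and the points share library and group. Egr4, another zinc-finger factor of the Egr family, came first with r = 0.943, and r = 0.911 with group means removed. It stood at 16.3, 11.4 and 15.6 CPM in control and 13.3, 18.2 and 12.7 in CSDS. Its SSDS-GFP libraries had 37.6, 24.5 and 19.8 CPM and its SSDS-shACOT12 libraries 38.4, 15.98 and 58.04, so SSDS-shACOT12 2 lay among the controls. The next were Znhit3 (0.939), 1700016P03Rik (0.939), Rgs10, a regulator of G-protein signalling (0.938), Phf23 (0.936), Ubl4a (0.935), Sirpa, a receptor for CD47 (0.933), Mrpl20, a protein of the mitochondrial ribosome (0.928), Zbed5 (0.922) and Ahsa1, a cochaperone of Hsp90 (0.921). By Spearman's correlation 2 of the 10 most similar genes were shared with this ranking, and with group means removed 2 were.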
